A study of Mus musculus with 2 samples.

Results

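A set of 8 genes of the distal nephron was followed in single cells of 1 control and 1 JPI-289 treated post-ischemic mouse kidney. They were Umod, Egf, Slc12a1, Slc12a3, Kcnj1, Bsnd, Trpm6 and Pvalb, taken by symbol, and they made up 8 of the 32285 genes in the count tables. Both kidneys came from 9-week-old male C57BL/6 mice that underwent bilateral ischemia-reperfusion injury (IRI). The control mouse received saline and the treated mouse received JPI-289, a poly (ADP-ribose) polymerase inhibitor, at 100 mg/kg, in each case into the peritoneal cavity just before reperfusion, and the kidneys were taken 24 h after the surgery. Each group was 1 mouse and 1 library, and no uninjured kidney was among the samples, so no test between groups was possible. The interval given with a level or ratio is a 95% interval that covers counting error alone, and neither the difference between cells nor that between mice. The question for these genes was how their levels differed between the treated and the control kidney in the cells that use them.

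Salt leaves the urine of the distal nephron in steps. The cells of the thick ascending limb (TAL) take up sodium, potassium and chloride through the cotransporter NKCC2, encoded by Slc12a1, which is the target of loop diuretics. Potassium returns to the lumen through the channel ROMK, encoded by Kcnj1, and chloride leaves across the basolateral membrane through channels that need the subunit barttin, encoded by Bsnd. The same cells secrete uromodulin, encoded by Umod and the most abundant protein of normal urine. The distal convoluted tubule (DCT) then takes up sodium and chloride through NCC, encoded by Slc12a3 and blocked by thiazides, and magnesium through the channel TRPM6. Egf, the precursor of epidermal growth factor, is made in both segments, and Pvalb encodes parvalbumin, a calcium-binding protein of the early DCT. Loss of function of Slc12a1, Kcnj1 or Bsnd causes Bartter syndrome and that of Slc12a3 causes Gitelman syndrome.

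All 8 are protein-coding genes on different chromosomes of the mouse genome (GENCODE, GRCm38). Umod lies on chromosome 7 from 119462711 to 119479282 on the minus strand, Slc12a1 on chromosome 2 from 125152505 to 125230002 on the plus strand, and Slc12a3 on chromosome 8 from 94329201 to 94366214 on the plus strand. Kcnj1 lies on chromosome 9 from 32372493 to 32399197, plus strand, and Egf on chromosome 3 from 129677565 to 129755316, minus strand. Bsnd spans 106483456 to 106492283 on chromosome 4, minus strand, Trpm6 18749983 to 18892511 on chromosome 19, plus strand, and Pvalb 78191114 to 78206400 on chromosome 15, minus strand.

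The DNA just before the transcription starts of Umod, Slc12a1 and Slc12a3 is shown because the results turn on these 3 genes. A further reason is that the libraries were made with a kit that reads the 5′ ends of RNAs. In addition, Umod and Slc12a1 differed between the libraries in opposite directions when summed over the same class of cells. The windows come from RefSeq promoter sequences of GRCm38.p6, which gave an entry for 7 of the 8 members, and each is printed only up to the start of the gene in GENCODE. Capitals mark the 2 motifs found out of 3 searched on both strands, the half-site of the hepatocyte nuclear factor 1 family, GTTAAT, and the TATA box, TATAAA. The Umod window, chr7:119479283-119479512 on the minus strand, holds 1 GTTAAT, which starts 202 bases before the RefSeq start, and the Slc12a3 window, chr8:94328958-94329200 on the plus strand, holds 1 TATAAA, 32 bases before it. The Slc12a1 window is chr2:125152350-125152504 on the plus strand.
Umod: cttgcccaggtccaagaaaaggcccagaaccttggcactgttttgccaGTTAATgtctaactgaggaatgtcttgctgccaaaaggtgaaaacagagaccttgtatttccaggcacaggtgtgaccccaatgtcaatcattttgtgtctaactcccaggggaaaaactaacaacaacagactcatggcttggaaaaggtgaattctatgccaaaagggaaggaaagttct
Slc12a1: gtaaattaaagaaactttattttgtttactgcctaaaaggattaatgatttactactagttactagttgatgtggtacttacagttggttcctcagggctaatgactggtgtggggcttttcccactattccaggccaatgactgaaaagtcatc
Slc12a3: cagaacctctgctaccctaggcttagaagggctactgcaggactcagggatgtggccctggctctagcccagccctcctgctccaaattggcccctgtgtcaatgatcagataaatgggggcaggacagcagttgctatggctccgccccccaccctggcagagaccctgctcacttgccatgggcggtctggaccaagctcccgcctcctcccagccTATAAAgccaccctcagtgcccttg
Over all 32851 promoter windows, GTTAAT or its reverse complement was in 6.43% of the 250 upstream bases, TATAAA in 12.4%, and the third motif searched, the nuclear receptor half-site AGGTCA, in 14.0%. None of the 9 windows of the members held AGGTCA. A match describes these letters and shows neither binding nor its absence.

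The control library held 38328760 unique molecular identifiers (UMIs) and the JPI-289 library 35548396, and 3752 and 5025 cells were kept with medians of 2054 and 1872 UMIs. Cells were grouped into classes without using the 8 members, either to cluster or to name them. The TAL-like class, 1 cluster of 280 control and 436 JPI-289 cells, was named from 10 markers, all of them detected, among them the claudins Cldn10, Cldn16 and Cldn19. The class of the distal convoluted and connecting tubule (DCT/CNT-like), 262 control and 266 JPI-289 cells in 2 clusters, carried the markers of both segments, which the clustering did not separate, so a value for it is not a value for the DCT alone. Median depths were close, with 1544 and 1656 UMIs per TAL-like cell and 1271 and 1377 per DCT/CNT-like cell in control and JPI-289. Levels are given as UMIs of a gene per 1000000 UMIs of the cells in the class (CPM). Tags of a 5′ kit are not divided by gene length, so levels were compared within a gene and not between genes. The 2 libraries shared 23 cell barcodes.

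Umod and Slc12a1 were concentrated in TAL-like cells and Slc12a3 and Trpm6 in DCT/CNT-like cells, although the members had no part in defining the classes. Of all Umod UMIs in kept cells, TAL-like cells gave 82.9% with saline and 90.6% with JPI-289, and of those of Slc12a1 86.7% and 84.9%. In DCT/CNT-like cells lay 90.6% and 73.6% of the Slc12a3 UMIs and 56.0% and 72.9% of the Trpm6 UMIs. Egf was split, with 48.6% and 66.2% in TAL-like and 29.9% and 18.1% in DCT/CNT-like cells. Kcnj1 was spread more widely, and in the control library 39.1% of its UMIs came from TAL-like cells, 31.9% from DCT/CNT-like cells and 16.5% from principal cells of the collecting duct.

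**Figure D1:**
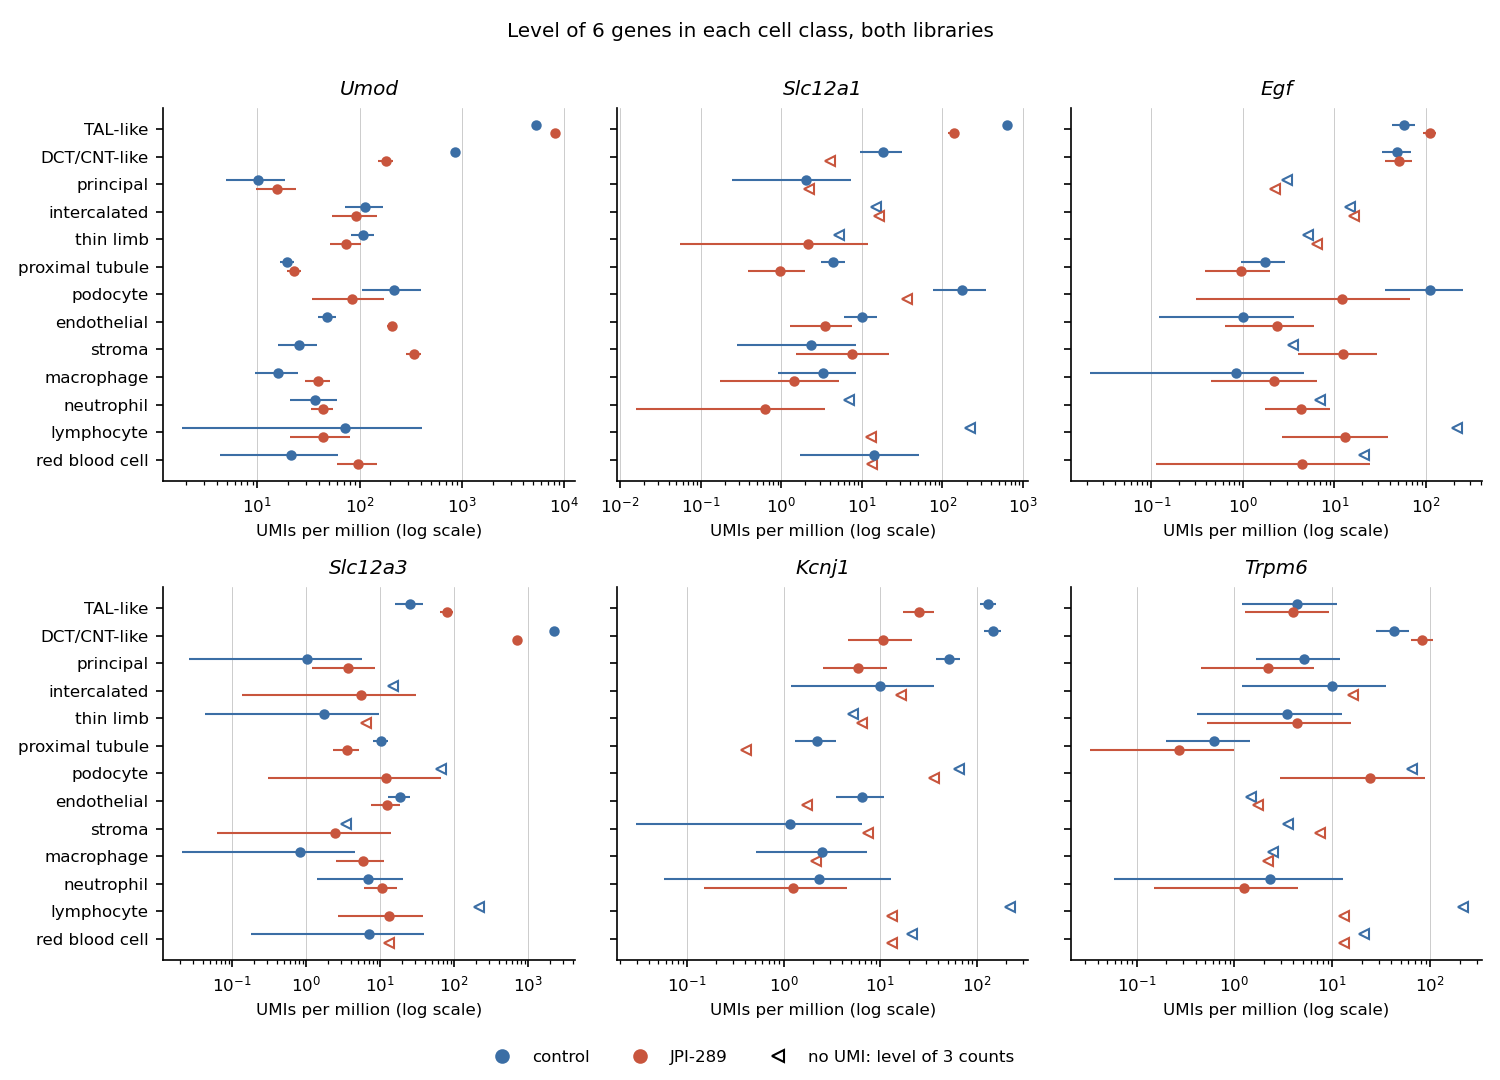
Level of 6 of the 8 genes in 13 cell classes, as CPM on a log scale, in the control (blue) and JPI-289 (red) library. Points carry exact Poisson 95% intervals and open triangles mark classes with no UMI, drawn at the level that 3 counts would give. Umod and Slc12a1 peak in TAL-like cells and Slc12a3 and Trpm6 in DCT/CNT-like cells of both libraries, and the red points lie left of the blue ones for Slc12a1 in TAL-like cells and for Kcnj1 in TAL-like, DCT/CNT-like and principal cells.

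The order of classes was clear at the top for Umod and not below it. Umod stood at 5316 CPM in control TAL-like cells and at 862 CPM in control DCT/CNT-like cells, and the next class, podocytes, at 219 CPM from 10 UMIs, did not have an interval apart from the class after it. In the JPI-289 library Umod stood at 8174 CPM in TAL-like cells, followed by stroma at 338 CPM and endothelial cells at 207 CPM. In endothelial cells 248 of the 356 Umod UMIs and in stroma 93 of the 136 came from 1 cell each, so these ranks rest on single cells. In neutrophils, which do not express Umod, its level was 36.8 CPM with saline and 43.5 CPM with JPI-289. In barcodes under 100 UMIs, which hold no called cell, Umod was at 292.5 and 427.6 CPM. The part of free RNA in the neutrophil level was not tested. The share of neutrophils with a Umod UMI, with each cell thinned to 1000 UMIs, was 4.52% (95% binomial interval 1.97% to 8.71%) and 4.99% (3.37% to 7.09%), at median depths of 2080 and 2196 UMIs before thinning. For Slc12a3 the DCT/CNT-like class came first and apart from the next in both libraries, and for Slc12a1 the TAL-like class, followed in the control by podocytes at 175 CPM, where all 8 UMIs lay in 1 cell. Control Kcnj1 was at 146.6 CPM in DCT/CNT-like and 131 CPM in TAL-like cells, which did not differ beyond their intervals. Control Egf was nominally first in podocytes, at 109.5 CPM with an interval of 35.5 to 255 that overlapped those of the TAL-like and DCT/CNT-like classes. Pvalb had at most 5 UMIs and Bsnd at most 16 in any class and library.

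In TAL-like cells, Umod and the 2 transport genes Slc12a1 and Kcnj1 differed in opposite directions between the 2 kidneys. Umod was higher in the JPI-289 library, whereas Slc12a1 and Kcnj1, the entry and the recycling step of sodium chloride uptake, were both over 4-fold lower. The intervals of these 2 reached log2 ratios of -1.95 and -1.80. Egf was higher along with Umod. Of the 8 members, 5 reached the 20 UMIs over both libraries that were set for a ratio, and among these 1 was at least 2-fold higher and 2 at least 2-fold lower, where 7.7% of the 7899 genes compared in this class were at least 2-fold higher and 10.8% at least 2-fold lower. The one at least 2-fold higher was Slc12a3, which was under 2-fold, at log2 ratios of 0.06 to 0.89, with the members kept for clustering, at 1000 or more UMIs per cell, at 20% or less mitochondrial UMIs and without the highest doublet scores. The median log2 ratio of the 5 was 0.62, beside -0.05 over all genes compared, and was 0.064 with the members kept and 0.17 without the highest doublet scores.

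Umod, uromodulin, gave 4831 UMIs (5316 CPM, 5167 to 5468) in control and 10351 (8174 CPM, 8017 to 8333) in JPI-289 TAL-like cells. Its log2 ratio, taken as JPI-289 over saline, was 0.62 (0.57 to 0.67). Slc12a1, NKCC2, gave 571 UMIs (628 CPM, 578 to 682) in control and 174 (137 CPM, 118 to 159) in JPI-289 cells, a log2 ratio of -2.19 (-2.45 to -1.95). Kcnj1, ROMK, gave 119 UMIs (131 CPM, 108 to 157) in control and 32 (25.3 CPM, 17.3 to 35.7) in JPI-289 cells, a log2 ratio of -2.36 (-2.98 to -1.80). The counting intervals of the 2 libraries did not overlap for any of these 3 genes, although those of the share of cells with a Umod UMI, given below, did.

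Egf, the growth factor precursor, gave 52 UMIs (57.2 CPM) in control and 139 (109.8 CPM) in JPI-289 TAL-like cells, a log2 ratio of 0.93 (0.47 to 1.43). Bsnd, barttin, gave 9 UMIs in control and 1 in JPI-289 cells, Trpm6 4 and 5, and Pvalb 0 and 5, all too few for a ratio. Slc12a3, NCC, gave 23 UMIs (25.3 CPM) in control and 101 (79.8 CPM) in JPI-289 TAL-like cells, a log2 ratio of 1.63, but these UMIs sat in few cells. In the control library 19 of the 23 came from 1 cell, and in the JPI-289 library 71 of the 101 came from 10 cells. With the members kept among the genes that cluster the cells, the log2 ratio of Slc12a3 was 0.06, so this value depended on which cells were placed in the class.

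**Figure D2:**
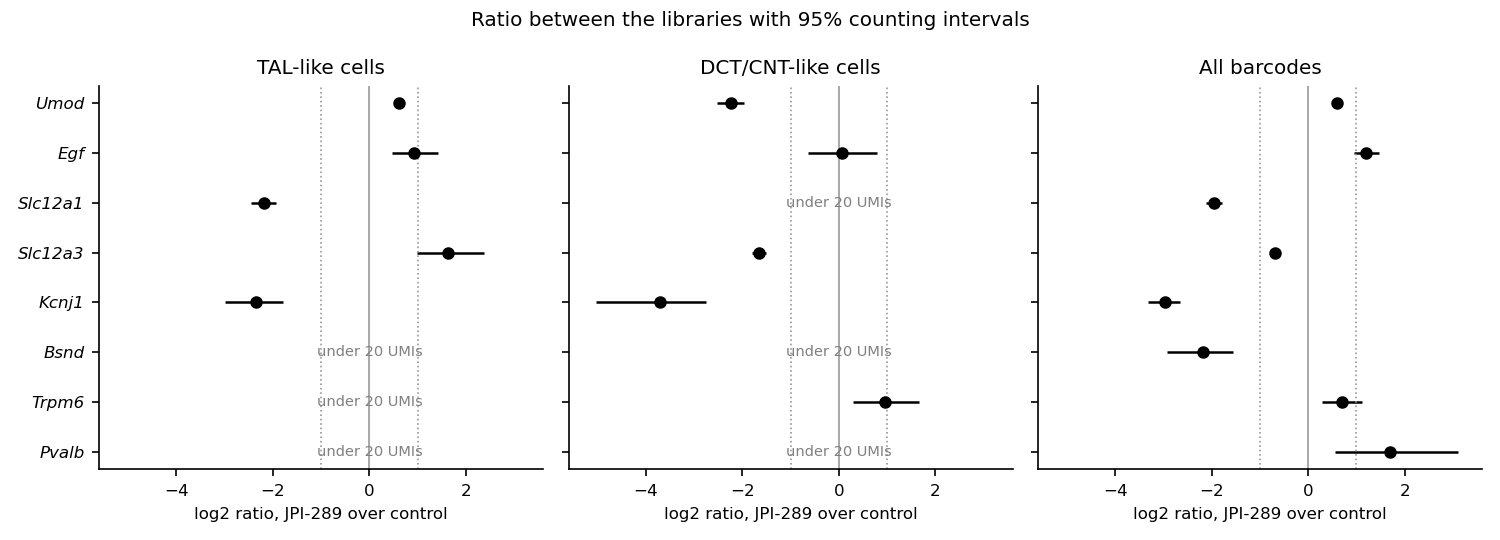
Log2 ratio of JPI-289 over control for the 8 genes in TAL-like cells, DCT/CNT-like cells and all barcodes, with exact 95% counting intervals. Dotted lines mark a 2-fold ratio, and genes with fewer than 20 UMIs have no point. Umod lies right of 0 in TAL-like cells (0.62) and left of it in DCT/CNT-like cells (-2.24), and Kcnj1 lies left of -2 in each panel.

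The shares of cells with a UMI followed the levels for Umod, Slc12a1 and Kcnj1, but not for Egf. At 1000 UMIs per cell, with 95 control and 131 JPI-289 cells left out as shallower, a Umod UMI was found in 67.0% (59.8% to 73.8%) of 185 TAL-like cells with saline and 76.7% (71.6% to 81.4%) of 305 with JPI-289. Before thinning they were 63.6% and 72.7%. The median thinned cell held 2 Umod UMIs with saline and 4 with JPI-289, and 32.4% and 45.9% of cells held 5 or more. A Slc12a1 UMI was found in 31.4% (24.7% to 38.6%) of cells with saline and 13.1% (9.54% to 17.4%) with JPI-289, and a Kcnj1 UMI in 10.3% (6.30% to 15.6%) and 1.31% (0.36% to 3.32%). Unthinned, these were 35.0% and 19.7% for Slc12a1 and 22.5% and 4.82% for Kcnj1. An Egf UMI was found in 8.11% (4.61% to 13.02%) and 7.87% (5.11% to 11.5%) of thinned cells and in 11.8% and 14.9% of unthinned ones, so its higher level did not appear as a larger share at equal depth. In thinned neutrophils Slc12a1 had a UMI in 0 of 177 control cells, which at a limit of 3 counts allows a share of up to 1.69%, and in 0 of 581 JPI-289 cells, which allows up to 0.516%.

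Umod and Slc12a1 were read in the same cells. Among thinned TAL-like cells with a Umod UMI, a Slc12a1 UMI was also found in 46 of 124 control cells, or 37.1% (28.6% to 46.2%), and in 36 of 234 JPI-289 cells, or 15.4% (11.01% to 20.7%). Among those without a Umod UMI it was found in 12 of 61 control cells, or 19.7%, and 4 of 71 JPI-289 cells, or 5.63%. The share was lower with JPI-289 in both sets of cells, although in cells without a Umod UMI the intervals, 10.6% to 31.8% and 1.56% to 13.8%, overlapped. Counted together, Slc12a1 made up 10.6% (9.76% to 11.4%) of the Umod and Slc12a1 UMIs in control and 1.65% (1.42% to 1.92%) in JPI-289 TAL-like cells. In barcodes under 100 UMIs, which hold no called cell and carry free RNA, it made up 12.2% (7.42% to 18.7%) and 4.55% (1.85% to 9.14%).

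**Figure D3:**
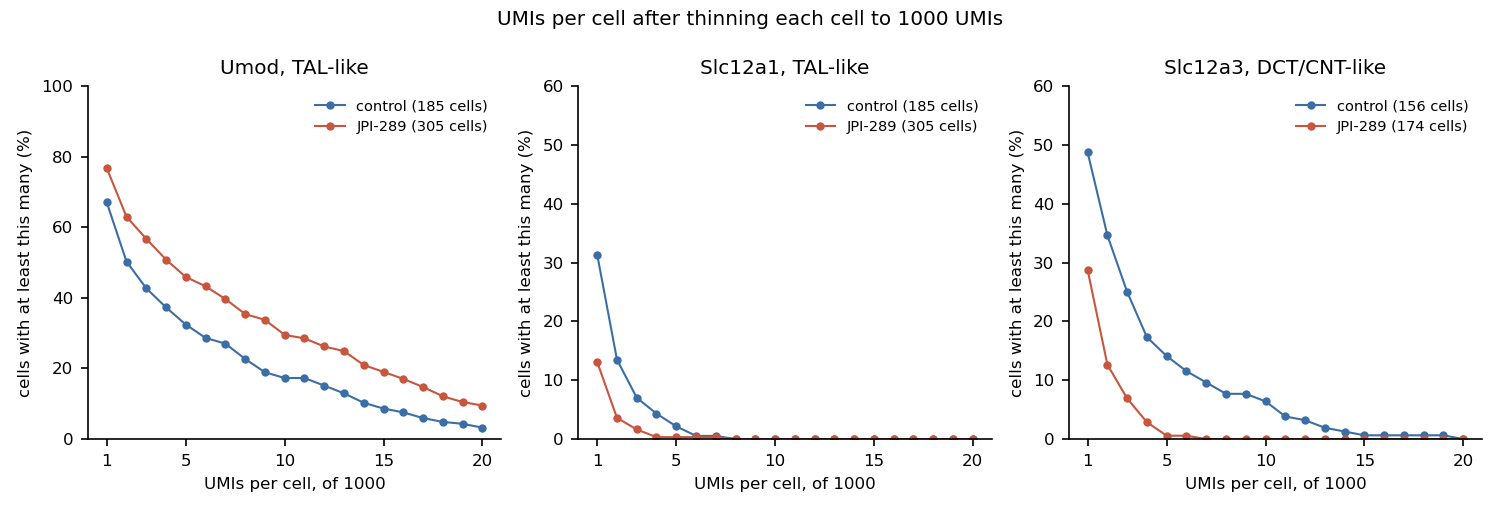
Percent of cells that held at least a given number of UMIs of a gene after each cell was thinned to 1000 UMIs, in control (blue) and JPI-289 (red) cells. The red curve lies above the blue one for Umod in TAL-like cells (76.7% against 67.0% at 1 UMI) and below it for Slc12a1 in TAL-like cells (13.1% against 31.4%) and Slc12a3 in DCT/CNT-like cells (28.7% against 48.7%).

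In a finer clustering 2 clusters carried the TAL cells, one of 185 control and 311 JPI-289 cells led by Eprn and Ppp1r1a and one of 88 and 114 cells led by Umod and Slc12a1. In the former Umod was at 2597 CPM with saline and 5910 CPM with JPI-289 (log2 ratio 1.19, 1.06 to 1.31), Slc12a1 at 186 and 89.2 CPM (-1.06, -1.68 to -0.45) and Kcnj1 at 97.2 and 7.43 CPM (-3.57). In the latter Umod was at 6272 and 10090 CPM (0.69, 0.63 to 0.74), Slc12a1 at 775 and 178 CPM (-2.12, -2.42 to -1.84) and Kcnj1 at 140.5 and 39.6 CPM (-1.81, -2.49 to -1.21). The direction of each gene was that of the whole class in both clusters.

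The markers that named the class differed less than Slc12a1 and Kcnj1 when summed. Of the 10 TAL markers that named the class, 1, Tmem72, was higher in the JPI-289 library, and their summed level was 2161 CPM with saline and 1672 CPM with JPI-289, a log2 ratio of -0.37. Of 6 injury markers 3 were higher in the JPI-289 library. Lcn2, which is expressed in this segment, was at 13880 and 22950 CPM, Havcr1 at 8.80 and 34.8 CPM and Krt20 at 38.5 and 109.8 CPM. Spp1 was lower, at 69250 and 60160 CPM, Sox9 was level, at 37.4 and 37.1 CPM, and Vcam1 had 1 UMI in each library. The summed level of the 6, most of it Spp1, was 83220 and 83300 CPM. Klk1, tissue kallikrein and a marker of the connecting tubule, was at 7785 CPM in control and 932 CPM in JPI-289 TAL-like cells. Markers of neutrophils summed to 17.6 and 106.6 CPM, all 6 of them higher in the JPI-289 library, and those of red blood cells to 1287 and 94.8 CPM, where 1003 of the 1081 control Hbb-bs UMIs lay in 1 cell. The part of these in the ratios of the members was not tested.

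In DCT/CNT-like cells, the members that were abundant in the control kidney were lower in the JPI-289 treated one. By class sums Slc12a3 was about 3-fold lower and Kcnj1 over 10-fold lower, and the Umod UMIs that lay in this class were lower as well. Kcnj1 rested on 8 UMIs in JPI-289 cells, and its log2 ratio ran from -4.57 to -3.13 over 13 alternatives. Trpm6, the magnesium channel, was higher. Of the 8 members, 5 reached 20 UMIs here, and none of these was at least 2-fold higher and 3 were at least 2-fold lower, where 7.26% of the 6938 genes compared were at least 2-fold higher and 9.76% at least 2-fold lower. The median log2 ratio of the 5 was -1.66, beside 0.00 over all genes compared.

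Slc12a3 gave 1496 UMIs (2261 CPM, 2148 to 2379) in control and 536 (716 CPM, 657 to 779) in JPI-289 DCT/CNT-like cells, a log2 ratio of -1.66 (-1.80 to -1.52). Kcnj1 gave 97 UMIs (146.6 CPM, 118.9 to 178.9) in control and 8 (10.7 CPM, 4.61 to 21.1) in JPI-289 cells, a log2 ratio of -3.70 (-5.03 to -2.74). Trpm6 gave 28 UMIs (42.3 CPM, 28.1 to 61.2) in control and 62 (82.8 CPM, 63.5 to 106.2) in JPI-289 cells, a log2 ratio of 0.95 (0.30 to 1.67). The counting intervals of the 2 libraries were apart for each of these genes, although those of the share of cells with a Trpm6 UMI, given below, overlapped.

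Umod gave 570 UMIs (862 CPM) in control and 136 (182 CPM) in JPI-289 DCT/CNT-like cells, a log2 ratio of -2.24 (-2.53 to -1.97). In both libraries most of them lay in few cells, with 90.4% and 88.2% in the 10% of cells that held most. Such concentration was not limited to Umod in this class. For Slc12a3 in the same class these shares were 78.5% in control and 79.3% in JPI-289 cells. In TAL-like cells they were 74.6% and 75.9% for Slc12a1 and 70.8% and 57.6% for Umod. The 10 TAL markers were all lower in DCT/CNT-like cells too. Their sum was 1206 CPM in control and 518 CPM in JPI-289 cells (log2 ratio -1.22). Of the 6 injury markers 3 were higher, among them Havcr1 at 15.1 and 36.1 CPM (1.21) and Krt20 at 13.6 and 56.1 CPM (1.98). Lcn2, at 5171 and 1716 CPM (-1.59), and Sox9, at 51.4 and 22.7 CPM (-1.16), were lower. The part of these markers in the Umod ratio was not tested. Egf gave 32 UMIs (48.4 CPM) and 38 (50.8 CPM), a log2 ratio of 0.07 (-0.65 to 0.79), so no difference was detectable at this depth. Slc12a1 gave 12 and 0 UMIs, Bsnd 8 and 7, and Pvalb 2 and 4, all too few for a ratio. With the 0 set to a floor of 3 counts over the class, Slc12a1 was 4.53-fold lower. Its counting interval reached a log2 ratio of -1.65.

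The shares of cells with a UMI had the same direction as the levels. At 1000 UMIs per cell a Slc12a3 UMI was found in 48.7% (40.7% to 56.8%) of 156 cells with saline and 28.7% (22.1% to 36.1%) of 174 with JPI-289, after 106 and 92 shallower cells were left out, and unthinned in 40.5% and 30.5%. At least 5 Slc12a3 UMIs were held by 14.1% of control and 0.575% of JPI-289 thinned cells. A Kcnj1 UMI was found in 12.2% (7.50% to 18.4%) and 1.15% (0.14% to 4.09%), and a Trpm6 UMI in 2.56% (0.703% to 6.44%) and 9.77% (5.80% to 15.2%), for which the unthinned shares were 9.92% and 14.7%. Neutrophils had a Trpm6 UMI in 0.565% and 0.172% of thinned cells. For Umod the shares were 23.1% (16.7% to 30.5%) and 8.05% (4.47% to 13.1%), above the 4.52% of neutrophils in the control library, while in the JPI-289 library the interval overlapped that of neutrophils.

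The 2 clusters of the class gave Slc12a3 the same direction. In the larger one, of 224 control and 217 JPI-289 cells, it was at 2146 and 806 CPM. In the smaller one, of 38 and 49 cells, it was at 3009 and 205 CPM, a log2 ratio of -3.85 (-4.56 to -3.26). The smaller cluster was headed by Pkhd1 and Slc12a3 and had the nuclear RNAs Neat1 and Malat1 among its 10 leading genes. Trpm6 was at 36.7 and 62.8 CPM in the larger cluster, a log2 ratio of 0.76 whose interval, -0.02 to 1.61, included 0. In the smaller cluster Trpm6 was at 78.9 and 196.3 CPM, from 7 and 22 UMIs. Umod differed between the clusters, with 974 and 181 CPM in the larger cluster and 135.2 and 187.4 CPM in the smaller one, where it rested on 12 and 21 UMIs.

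The segment markers of the class also differed. Of the 10 DCT markers 3 were higher in the JPI-289 library and their sum was at 1740 CPM in control and 1226 CPM in JPI-289 cells. Tmem52b was at 379 and 53.4 CPM, whereas Pgam2 was at 464 and 625 CPM. The 6 CNT markers summed to 15100 and 30850 CPM, most of it Klk1 and S100g, while Calb1 was at 1725 and 1750 CPM. A lower Slc12a3 level per DCT cell and fewer DCT cells among those of the class cannot be told apart from these values. Red blood cell markers summed to 176.9 CPM in control and 2018 CPM in JPI-289 cells, and 1113 of the 1250 Hbb-bs UMIs of the latter lay in 1 cell.

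Kcnj1 and Bsnd were also read in the collecting duct, where ROMK secretes potassium and barttin serves the chloride channels of intercalated cells. Principal cells, 79 with saline and 384 with JPI-289, gave 50 (51.0 CPM) and 8 (5.92 CPM) Kcnj1 UMIs, a log2 ratio of -3.03 (-4.39 to -2.02). Their median depths, 9305 and 1540 UMIs, differed, and the share with a Kcnj1 UMI at 1000 UMIs per cell was 5.71% (1.58% to 14.0%) and 0.274% (0.007% to 1.52%). Bsnd gave 16 and 4 UMIs in principal cells (-2.34, -4.50 to -0.83) and 7 and 1 in intercalated cells. Kcnj1 was thus lower in the JPI-289 library in the 3 classes where it had 20 or more UMIs.

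Over all barcodes, with no cell calling or clustering, all 8 members had 20 or more UMIs. Of these, 4 were higher and 4 lower in the JPI-289 library, 2 of them at least 2-fold higher and 3 at least 2-fold lower, where 7.31% of 15273 genes were at least 2-fold higher and 20.6% at least 2-fold lower. In such sums fewer cells of a type and less RNA per cell cannot be told apart. Umod gave 12553 UMIs (328 CPM) with saline and 17561 (494 CPM) with JPI-289 (log2 ratio 0.59, 0.56 to 0.63), and Egf 182 and 389 UMIs (1.202, 0.95 to 1.47). Slc12a1 gave 1403 and 337 UMIs (-1.95, -2.12 to -1.78), Kcnj1 727 and 86 (-2.96, -3.31 to -2.65) and Bsnd 115 and 23 (-2.19, -2.93 to -1.56). Slc12a3 gave 2449 and 1401 UMIs (-0.70, -0.79 to -0.60), Trpm6 83 and 125 (0.70, 0.29 to 1.12) and Pvalb 8 and 25 (1.69, 0.56 to 3.11). The share of cells in the TAL-like class was 7.46% (6.64% to 8.35%) with saline and 8.68% (7.91% to 9.49%) with JPI-289, and in the DCT/CNT-like class 6.98% (6.19% to 7.85%) and 5.29% (4.69% to 5.95%).

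More of the other genes listed for distal transport and its regulation were lower than higher with JPI-289. The list held channels, pumps and claudins, and also kinases, receptors and 13 transcription factors. Of a list of 59 genes, 41 could be compared in TAL-like cells, where 3 were at least 2-fold higher and 11 at least 2-fold lower, and the median log2 ratio was -0.51. In DCT/CNT-like cells 45 could be compared, 1 at least 2-fold higher and 14 at least 2-fold lower, with a median of -0.56. Transcription factors made up 4 of the 11 and 5 of the 14 that were lower. The shares at least 2-fold lower, 26.8% and 31.1%, stood beside 10.8% and 9.76% over all genes, and those at least 2-fold higher, 7.32% and 2.22%, beside 7.7% and 7.26%. Some of these genes also served to name the classes, among them Cldn10, Cldn16, Cldn19, Ptger3, Wnk4, Klhl3, Calb1 and S100g.

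Subunits of the sodium pump, which drives uptake in both segments, were lower in both. Fxyd2, its gamma subunit, gave 8196 and 4537 UMIs in control and JPI-289 TAL-like cells (9019 and 3583 CPM, log2 ratio -1.33, -1.38 to -1.28) and 6992 and 3240 in DCT/CNT-like cells (10570 and 4328 CPM, -1.29, -1.35 to -1.23). Atp1b1, the beta subunit, was at 2268 and 1458 CPM in TAL-like (-0.64, -0.73 to -0.55) and 3212 and 2090 CPM in DCT/CNT-like cells (-0.62, -0.71 to -0.52). Each of these 4 intervals lay below 0.

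Kcnj16, a basolateral potassium channel subunit, was at 205.8 and 82.9 CPM in TAL-like cells (-1.31, -1.67 to -0.96) and 349 and 171 CPM in DCT/CNT-like cells (-1.03, -1.35 to -0.71). Its partner Kcnj10 was at 127 and 88.2 CPM in DCT/CNT-like cells (-0.52, -1.01 to -0.04). Of the kinases that activate NKCC2 and NCC and their partners, 2 of 7 in TAL-like cells, Wnk4 and Stk39, and 2 of 8 in DCT/CNT-like cells, Wnk1 and Klhl3, were at least 2-fold lower and none at least 2-fold higher. Cul3, the ubiquitin ligase scaffold that works with Klhl3, was at 75.6 and 138.9 CPM in DCT/CNT-like cells (0.87, 0.38 to 1.40). The 3 TAL claudins that could be compared had log2 ratios from -0.97 to -0.20.

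Sodium uptake genes other than the cotransporters were mixed. Of the epithelial sodium channel group 1 of 3 compared in TAL-like cells and 0 of 7 in DCT/CNT-like cells were at least 2-fold higher, and 1 of the 7 was at least 2-fold lower. Slc9a3, the sodium-hydrogen exchanger NHE3, gave 89 and 389 UMIs in TAL-like cells (97.9 and 307 CPM, log2 ratio 1.64, 1.31 to 1.998). Scnn1a, the alpha subunit of the epithelial sodium channel, was at 129.8 and 275.6 CPM in TAL-like (1.08) and 280 and 453 CPM in DCT/CNT-like cells (0.69), and Scnn1b at 55.9 and 105.5 CPM in the latter (0.91). Sgk1, an aldosterone-induced kinase, was at 111.9 and 216.4 CPM in DCT/CNT-like cells (0.95, 0.55 to 1.37). Hsd11b2, which shields the mineralocorticoid receptor from glucocorticoids, went the other way, at 170.8 and 26.7 CPM (-2.65, -3.44 to -1.98).

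Of the calcium and magnesium genes 1 of 7 in TAL-like and 1 of 10 in DCT/CNT-like cells was at least 2-fold higher, and 4 in each class were at least 2-fold lower. S100g, the calcium-binding protein calbindin-D9k, gave 746 and 663 UMIs in TAL-like cells (821 and 524 CPM, -0.65) but 2497 and 8036 in DCT/CNT-like cells (3774 and 10730 CPM, 1.51, 1.44 to 1.57). Calb1, calbindin-D28k, was at 8.80 and 41.9 CPM in TAL-like cells (2.18), where 8 and 53 UMIs were read, and was level in DCT/CNT-like cells, at 0.02 (-0.09 to 0.14). Atp2b4, a plasma membrane calcium pump, was at 75.6 and 18.7 CPM in DCT/CNT-like cells (-1.98, -2.99 to -1.14).

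Several transcription factors of the distal nephron were lower. Of 9 that could be compared in TAL-like cells 4 were at least 2-fold lower, and of 11 in DCT/CNT-like cells 5, and none was at least 2-fold higher in either. Tfcp2l1 gave 285 and 65 UMIs in TAL-like cells (314 and 51.3 CPM, -2.60, -3.02 to -2.22), Tfap2b 98 and 44 (107.8 and 34.8 CPM, -1.63) and Irx1 149 and 70 (164 and 55.3 CPM, -1.56). In DCT/CNT-like cells Tfap2b, which is needed for distal tubule differentiation, gave 100 and 26 UMIs (151.2 and 34.7 CPM, -2.10, -2.80 to -1.49). Esrrb, an estrogen-related receptor, was at 28.6 and 52.9 CPM in TAL-like cells (0.87, 0.21 to 1.60).

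**Figure D4:**
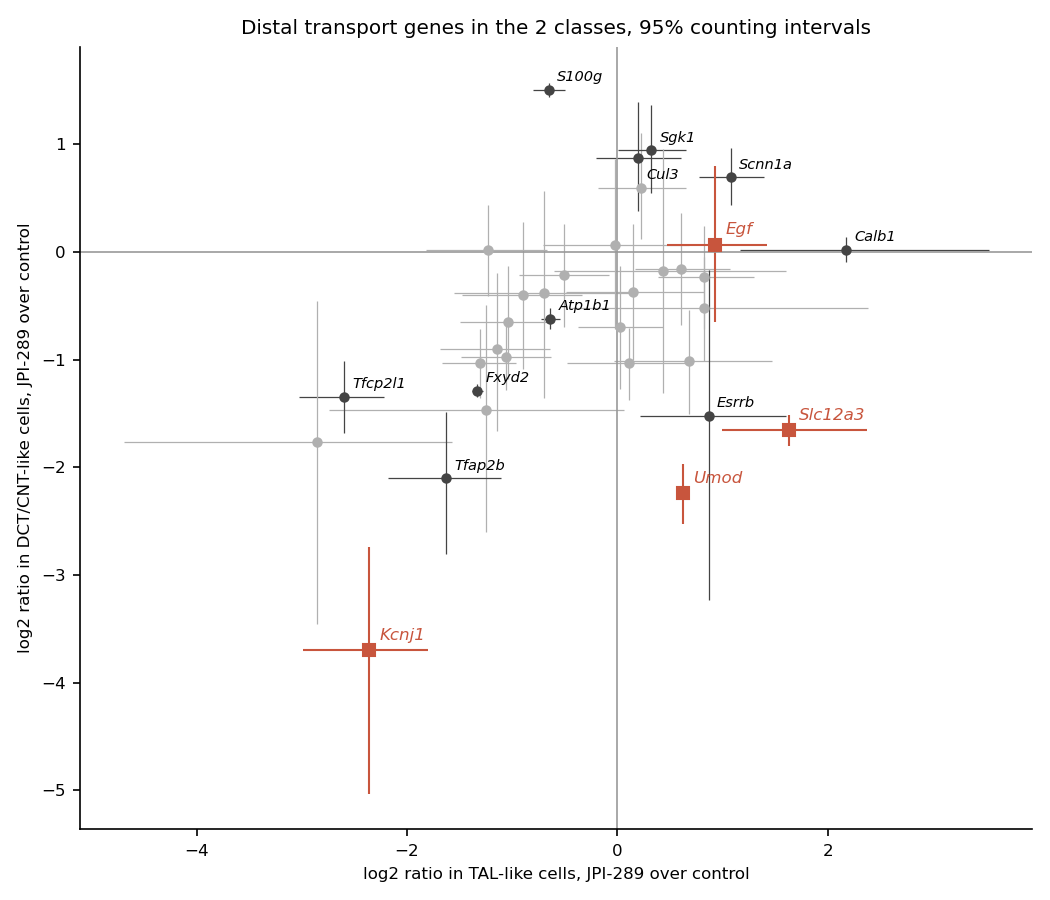
Log2 ratio of JPI-289 over control in TAL-like cells (x axis) and DCT/CNT-like cells (y axis), with exact 95% counting intervals. Shown are 30 genes listed for distal transport and its regulation (grey, the named ones dark) and 4 of the 8 members (red squares). Kcnj1 lies at the lower left, at -2.36 and -3.70, and Umod at the lower right, at 0.62 and -2.24.

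Across the 24 sums of a class in a library that held at least 50000 UMIs, the genes most like each member were found among 10214 genes by the correlation of log2(CPM + 10). These sums share libraries, classes and depth, and the correlation is a description. Umod was most like Slc5a1 (Pearson r = 0.87), Egf (0.85) and Ppp1r1a (0.85), and Egf was most like Umod, Ppp1r1a (0.82), Wfdc15b (0.80) and Tmem72 (0.78). Slc12a1 was most like Eprn (0.98), Slc5a1 (0.95), Cldn19 (0.85) and Gal (0.81). Slc12a3 was most like Abca13 (0.93), Ptgfr (0.80), Hoxb5os (0.79) and Mfsd4a (0.79), and Kcnj1 most like Sostdc1 (0.97), Tfap2b (0.93), Mfsd4a (0.86) and Gal3st1 (0.84). Between members the correlation was 0.80 for Umod and Slc12a1, 0.67 for Slc12a1 and Kcnj1 and 0.60 for Slc12a3 and Kcnj1. Bsnd, Trpm6 and Pvalb had under 200 UMIs in called cells and were not ranked.

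**Figure D5:**
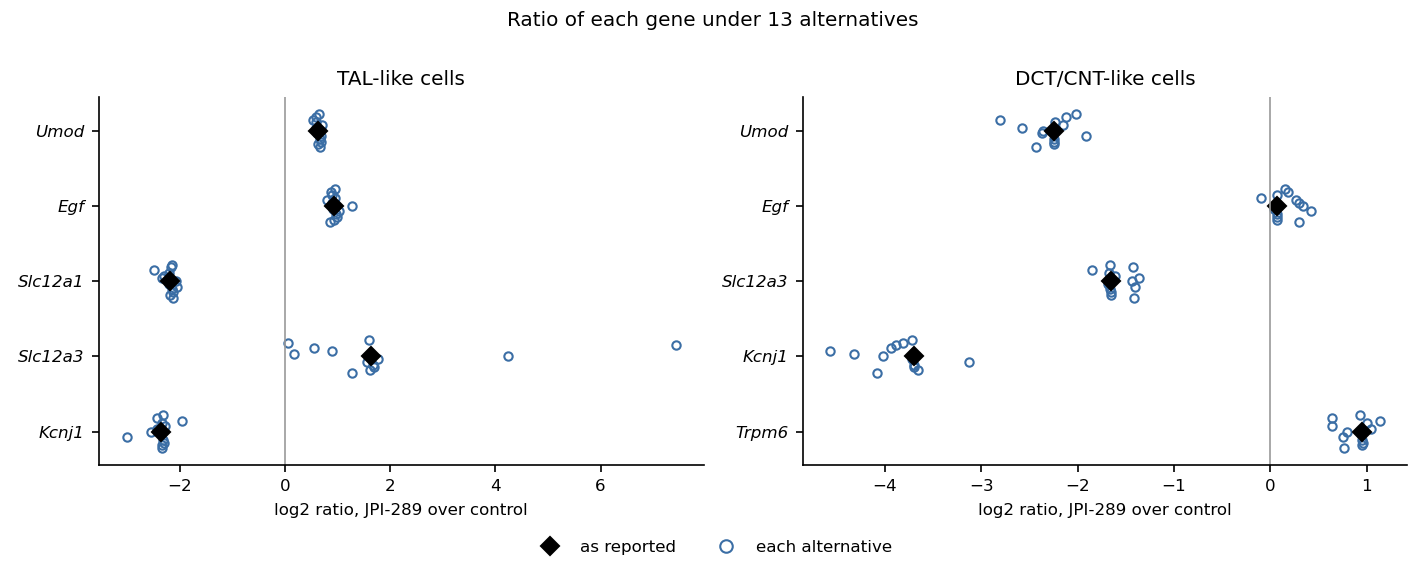
Log2 ratio of JPI-289 over control for the members with at least 20 UMIs in TAL-like and DCT/CNT-like cells, as reported (black diamonds) and under each of 13 alternatives (open circles). Umod, Slc12a1 and Kcnj1 in TAL-like cells and Umod, Slc12a3, Kcnj1 and Trpm6 in DCT/CNT-like cells stayed on their side of 0, while Slc12a3 in TAL-like cells ran from 0.06 to 7.43.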

How the data were processed

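The deposited files hold unnormalised UMI counts of all barcodes, cells or not, in 2 libraries made with a 10x 5′ kit. Per the labels they were made with Cell Ranger 5.0.1 on mm10. The counts had no cell, mitochondrial or doublet filter. Each group was 1 library, so nothing was tested. The members, lists and tests were chosen with earlier results of these data known.

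Cells were called in 2 steps. Barcodes over 3338 (control) and 2618 (JPI-289) UMIs were kept, and those of at least 500 UMIs were compared with barcodes ranked 45000 to 90000 with 10000 simulated profiles and a false discovery rate of 0.01. Of the called cells, 546 and 394 were over 50% mitochondrial and were left out. With scanpy 1.11.5, 2000 variable genes without the 8 members, 30 principal components, and 20 neighbours went into Leiden clustering (resolution 1), and the libraries were not integrated. Scrublet marked 2 of 8777 cells and so had not worked, and no doublets were removed.

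Clusters were named by their leading marker list, with a mean log2 ratio over the median of clusters of at least 0.75, 3 markers detected and, under a score of 2, a marker among the 10 leading genes. This rule was chosen with the clusters in view. Of the 2 DCT/CNT-like clusters, the smaller had the red blood cell list first (3.63) and the CNT list next (3.10), and that first list was passed over because none of its markers led the cluster.

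UMIs were summed per class and library. Ratios had 0.5 UMIs added to each count, and intervals were exact Poisson (levels) and Clopper-Pearson (ratios and shares). Genes with at least 20 UMIs over both libraries were compared, and 2-fold counted as past. Named genes were all members and, per class, the 5 listed genes with most UMIs and the 4 highest and 4 lowest ratios among those with at least 50 UMIs, with others named beside a count of their group or marker list. Some genes that this rule names are not reported here. Free RNA was estimated from 20 blood and endothelial genes in barcodes under 100 UMIs, leaving out cells with over 20 UMIs of them, at 3.70% and 3.02% of TAL-like and 5.47% and 3.66% of DCT/CNT-like UMIs in control and JPI-289. The steps were tested on simulated counts. Alternatives changed the calling, filters, clustering, doublets, free RNA, weighting, scaling and the added count.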

Additional observations from a re-analysis of the deposited data

Results flagged for a closer look

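Umod and Slc12a3 had ratios of opposite sign in the 2 classes. The log2 ratio of Umod was 0.62 in TAL-like and -2.24 in DCT/CNT-like cells, and that of Slc12a3 was 1.63 in TAL-like and -1.66 in DCT/CNT-like cells. The TAL-like value of Slc12a3 ran from 0.06 to 7.43 over 13 alternatives and rested on few cells. In TAL-like cells 19 of its 23 control UMIs lay in 1 cell, and 71 of its 101 JPI-289 UMIs in 10 cells. In the DCT/CNT-like class the 10 TAL markers were all lower with JPI-289 as well, and their sum was at 1206 and 518 CPM (log2 ratio -1.22). With 1 library per group the difference between the classes was not tested.

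Cells over 50% mitochondrial were left out of every class and entered only the sums over all barcodes or over those of at least 500 UMIs, and they held more Umod and Egf in the JPI-289 library. Umod was at 51.4 CPM in 546 control and 88.8 CPM in 394 JPI-289 cells of this kind, and Egf at 2.60 CPM from 4 UMIs and 15.3 CPM from 16 UMIs.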

How the results depend on the processing

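With 1 library per group, the limit of every ratio is the missing replicate, and intervals cover counting error only. No paired analysis was possible because the result comes from no test and each group has 1 library. The median of the 5 compared members in TAL-like cells, 0.62 as reported, was 0.064 with the members kept for clustering, 0.71 at a limit of 20% mitochondrial UMIs, 0.17 without the top 5% of doublet scores, 0.68 with equal weight of each cell, 0.68 with totals of nuclear genes and 0.68 without cells of 2 or more Slc12a3 UMIs. At 0.064 and 0.17 the middle gene was Slc12a3. In DCT/CNT-like cells the median, -1.66 as reported, was -1.42 with the members kept, -1.85 with first-step cells only and -1.36 without high doublet scores. It was -1.44 with each library clustered alone, -1.40 with equal weight and -1.41 without the smaller cluster, which had Neat1 and Malat1 among its leading genes. The count of members higher there, 2, was 1 at a minimum of 1000 UMIs per cell, where Egf was at -0.09. Over 13 alternatives Slc12a1 stayed between -2.49 and -2.05 and Kcnj1 between -3.01 and -1.96 in TAL-like cells, and Slc12a3 between -1.85 and -1.36 in DCT/CNT-like cells. With a gene minimum of 100 and 5 UMIs, 5.22% and 16.6% of all genes were at least 2-fold lower in TAL-like cells and 5.12% and 17.3% in DCT/CNT-like cells. The alternatives without the smaller DCT/CNT-like cluster and without Slc12a3-holding cells were chosen after seeing the data.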
